A study of Mus musculus with 8 samples.

Results

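Wnt target and pericentral zonation genes were followed in mouse liver carcinomas and in virus-infected liver, through every probe set whose platform annotation gave a single gene symbol among 10 genes. These were Glul, Axin2, Lgr5, Tbx3, Nkd1, Wnt4, Oat, Rhbg, Slc1a2 and Lect2. They are 10 of the 18193 genes that the tumour array names by a single symbol, and of 12393 on the adenovirus array. They had 25 of the 45037 probe sets of the tumour array and 13 of the 22626 probe sets of the adenovirus array, control probe sets left out, and these 13 were on both arrays. Total RNA was labelled and hybridised to Affymetrix expression arrays, and each value below is a MAS5 signal, the scaled brightness of a probe set on a linear scale.

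All mice lacked p53 and were on a C57BL/6J background. The tumour data held 3 hepatocellular carcinomas of mTERC- mice, which lack the telomerase RNA gene, and 3 of mTERC+ mice, which carry it, with 1 tumour per array. The mice of both tumour groups carried the HBs transgene and were 12 to 15 months old; the promoter of that transgene is not given in the sources used here. The adenovirus data held 1 array of liver from p53-null mice infected intravenously with a virus for TRF2DBDM, a truncated telomere-binding protein, and 1 array from mice given a GFP virus. Each of these arrays carried RNA pooled from 3 mice, taken 48 hours after infection. The labels name hepatocytes as the tissue while the design text describes liver and tumour RNA, and the 6 hepatocyte markers found on the array summed to a signal of 169436 to 253067 in mTERC- tumours and 206384 to 265430 in mTERC+ tumours.

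In the liver lobule, Wnt ligands and R-spondins from endothelial cells of the central vein stabilise beta-catenin in the hepatocytes next to it. Beta-catenin with TCF factors then switches on pericentral genes, and hepatocytes around the portal vein run another programme that includes urea synthesis and gluconeogenesis. Glutamine synthetase, the product of Glul, is the best known marker of the pericentral layer, and it is often strongly raised in liver tumours with activating beta-catenin mutations.

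The arrays had a median signal of 54.4 to 57.4 on mTERC- tumours 1 and 3, of 57.1 to 59.3 on mTERC+ tumours, of 52.3 in the TRF2DBDM pool and of 46 in the GFP pool. The array of mTERC- tumour 2 stood apart, with a median of 75. Its Gapdh control was 13.8 times as bright at the 3' as at the 5' end, a ratio that ran from 0.983 to 1.18 elsewhere among the tumours. It correlated with the other tumours at a mean r of 0.787, where each of those had 0.833 to 0.845. Signals for 18S RNA averaged 302 in mTERC- tumour 2, 233 in mTERC- tumour 3 and between 4281 and 9994 in the remaining tumours.

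On the tumour array, 9 of the 25 member probe sets reached the array-wide median by mean level and 16 lay below it. Of the 10 genes, 7 had at least 1 probe set at or above the median: Glul, Tbx3, Nkd1, Wnt4, Oat, Rhbg and Lect2. Axin2, Lgr5 and Slc1a2 had none, so their values come from the dim part of the array. A difference there is a difference between dim signals, and no detection calls were used.

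**Figure D1:**
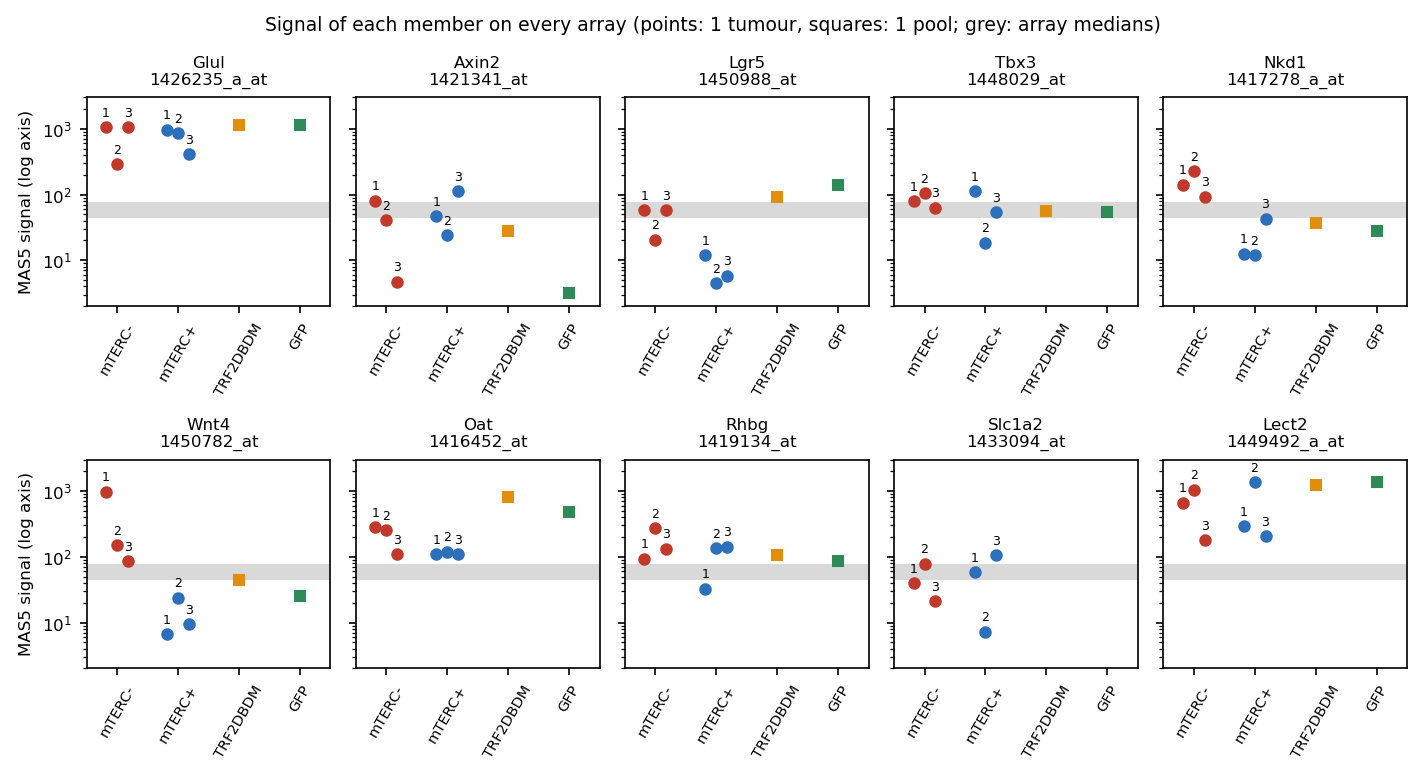
MAS5 signal (log axis) of the probe set with the highest mean of each gene on every array, with points for single tumours, numbered as in the text, squares for the adenovirus pools and a grey band for the range of the array medians, 46 to 75. Wnt4, Nkd1 and Lgr5 are higher in all 3 mTERC- tumours than in the mTERC+ tumours, and the points of the other 7 genes overlap. The Slc1a2 probe set shown is not on the adenovirus array.

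Promoter sequence from RefSeq (GRCm38.p6) was found for 7 of the 10 genes, as windows of 250 bases before and 50 after an annotated start. Both strands were searched for a TCF/LEF core of the letters CTTTGAT. It was found in the windows of Lect2 and Slc1a2, on the minus strand of each gene's own direction, and not in those of Glul, Axin2, Nkd1, Wnt4 and Oat. Of all 32851 promoter windows 3.73% hold it. The 250 bases before the start are shown for the genes with a match, with the match in capitals, and for Wnt4, the member with the largest difference between the tumour groups, where there is none.
Lect2, chr13:56548539-56548788, minus strand: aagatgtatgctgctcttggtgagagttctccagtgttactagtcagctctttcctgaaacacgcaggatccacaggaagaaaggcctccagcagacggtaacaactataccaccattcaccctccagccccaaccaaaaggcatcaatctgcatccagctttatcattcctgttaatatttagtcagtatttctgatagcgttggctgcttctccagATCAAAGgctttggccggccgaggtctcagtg
Slc1a2, chr2:102706188-102706437, plus strand: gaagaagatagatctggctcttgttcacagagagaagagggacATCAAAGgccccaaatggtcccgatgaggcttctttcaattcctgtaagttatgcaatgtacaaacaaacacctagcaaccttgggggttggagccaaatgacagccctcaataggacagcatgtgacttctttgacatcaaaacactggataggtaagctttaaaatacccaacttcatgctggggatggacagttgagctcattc
Wnt4, chr4:137277385-137277634, plus strand: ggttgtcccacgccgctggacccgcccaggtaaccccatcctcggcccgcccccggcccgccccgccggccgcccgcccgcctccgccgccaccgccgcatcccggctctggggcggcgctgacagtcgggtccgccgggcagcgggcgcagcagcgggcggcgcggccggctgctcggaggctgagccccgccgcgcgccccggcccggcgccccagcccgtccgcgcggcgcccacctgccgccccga
The match began 32 bases before the start in Lect2 and 207 bases before it in Slc1a2. A match of letters is a description of the window and says nothing of binding.

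The tumour comparison asked which of these genes differed between carcinomas without and with the telomerase RNA. No member probe set passed in limma over all probe sets, and 4 had an unadjusted p below 0.05. In the whole array 9 of 45037 probe sets passed, or 0.0200%, and 4.51% had an unadjusted p below 0.05. Of the 25 member probe sets, 12 had a higher and 13 a lower mean level in mTERC- tumours. Their median log2 difference was -0.0092, against 0.03 over all probe sets. The groups did not overlap for 3 probe sets that were higher in mTERC- tumours, which were the brightest ones of Wnt4, Nkd1 and Lgr5, and for 1 that was lower, of Tbx3. Over the whole array 5.67% of probe sets were higher and 4.28% lower without overlap. Log2 differences are mTERC- minus mTERC+ on the scale of log2(signal + 32), which understates the change of dim probe sets.

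**Figure D2:**
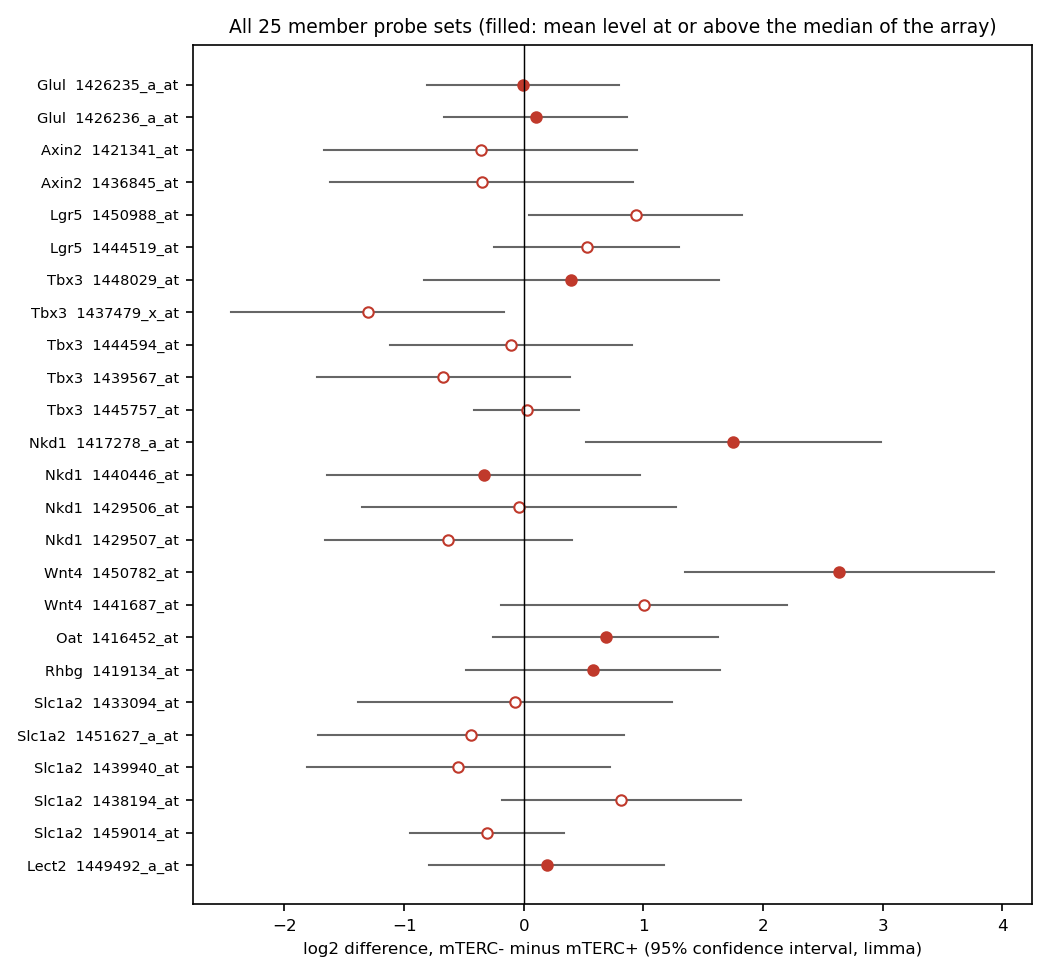
Log2 difference between mTERC- and mTERC+ tumours for all 25 member probe sets, with 95% confidence intervals from limma (3 tumours per group) and filled points where the mean level reached the array-wide median. The intervals are for single probe sets, without adjustment for the number tested. That of Wnt4 1450782_at runs from 1.35 to 3.93, with an adjusted p of 0.324 in limma. Probe sets of Glul, Nkd1, Tbx3 and Slc1a2 lie on both sides of 0.

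Wnt4 codes for a secreted Wnt ligand that is itself expressed around the central vein. Its probe set 1450782_at had signals of 982, 149 and 85.9 in mTERC- tumours 1, 2 and 3, against 6.7, 23.9 and 9.5 in mTERC+ tumours 1, 2 and 3. All 3 mTERC- tumours were above all 3 mTERC+ tumours, and mTERC- tumour 1 was far above the other two. The means were 406 ± 500.3 and 13.4 ± 9.23 (SD, n = 3 each). On the log2 scale they were 2.64 apart (SE 0.64), which is 6.22-fold, and limma gave an adjusted p of 0.324, so the difference did not pass. Without mTERC- tumour 1 it was 1.71 (adjusted p = 0.858), and without mTERC- tumour 2, the array with the high Gapdh ratio, it was 2.95 (adjusted p = 0.756). With a block for the 18S control, which leaves mTERC- tumour 1 as the only one set against the mTERC+ group, it was 4.50 (adjusted p = 0.0816). The second probe set of Wnt4, 1441687_at, had 296 in mTERC- tumour 1 and 14.1 and 6.4 in mTERC- tumours 2 and 3, against 5.8 to 16.8 in mTERC+ tumours. It was thus clearly above the mTERC+ range in mTERC- tumour 1 alone.

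The summed signal of neutrophil markers separated the tumour groups, while most single markers overlapped. The 9 markers summed to a signal of 9174 to 22022 in mTERC- tumours and 405 to 3097 in mTERC+ tumours, and 9 of 9 had a higher mean in mTERC- tumours. Of all 18193 genes, 9544 had a higher and 8649 a lower mean there. Of the 9 markers S100a8 and S100a9 passed in limma, with log2 differences of 3.75 and 4.20. S100a8, S100a9 and Csf3r, 3 of the 9, were higher without overlap between the groups, where 5.87% of all genes were. The sums in mTERC- tumours came mostly from S100a8 and S100a9, at 2759 and 5523 in mTERC- tumour 3. In that tumour Camp, Ngp and Ltf, at 50.2, 72.2 and 5.4, lay within the range of the mTERC+ tumours. Macrophage markers summed to 9893 to 16281 in mTERC- and 9244 to 54372 in mTERC+ tumours, with 10 of 10 at a lower mean. Endothelial markers, from cells that make Wnt ligands in the liver, summed to 1047 to 2152 in mTERC- and 1606 to 3015 in mTERC+ tumours, with 8 of 10 at a lower mean. Markers of stellate cells and fibroblasts ran from 4812 to 8383 in mTERC- and from 4340 to 11269 in mTERC+ tumours, with 5 of 10 at a lower mean. Of the cholangiocyte markers 5 of 8 could be followed, with sums of 451 to 752 in mTERC- and 370.0 to 476 in mTERC+ tumours and 4 of 5 at a higher mean. No marker of these lists was at 0, since every MAS5 signal here is positive. The part of these cells in the values of the members was not tested, and in bulk RNA fewer cells of a type and less RNA per cell cannot be told apart.

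Nkd1 codes for an inhibitor of Dishevelled and is a feedback target of Wnt signalling. The signals of 1417278_a_at were 141, 228 and 92.1 in mTERC- tumours 1, 2 and 3, against 12.6, 12.0 and 42.8 in mTERC+ tumours 1, 2 and 3. The groups did not overlap, and the highest value came from mTERC- tumour 2. They were 1.75 apart on the scale of log2(signal + 32) (SE 0.61), which is 3.36-fold on that scale, and limma gave an adjusted p of 0.955. Without mTERC- tumour 2 the log2 difference was 1.47. The other 3 probe sets of Nkd1 did not share this pattern. Probe set 1440446_at had 7.7, 52.6 and 130.2 in mTERC- tumours and 111, 87.9 and 31.9 in mTERC+ tumours, with a log2 difference of -0.34. The log2 difference was -0.04 for 1429506_at and -0.63 for 1429507_at, both below the median level.

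Lgr5, the R-spondin receptor of pericentral hepatocytes and of stem cells in several tissues, was dim. Its probe set 1450988_at had 58.0, 20.6 and 57.4 in mTERC- tumours 1, 2 and 3, against 12.0, 4.5 and 5.8 in mTERC+ tumours 1, 2 and 3. The groups did not overlap, although the highest signal, in mTERC- tumour 1, was only just above the median of its array. A log2 difference of 0.93 (SE 0.44) had an adjusted p of 0.955 in limma. The other Lgr5 probe set, 1444519_at, had 82.8 in mTERC- tumour 2 and 7.1 to 12.1 in the other 5 tumours.

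Axin2 codes for a scaffold of the beta-catenin destruction complex and is widely used as a readout of Wnt activity. The signals of 1421341_at were 80.8, 40.7 and 4.7 in mTERC- tumours 1, 2 and 3, against 46.5, 24.1 and 113 in mTERC+ tumours 1, 2 and 3. The groups overlapped throughout, and both tumour groups held values on either side of the array median. The log2 difference was -0.36 (95% interval -1.67 to 0.95), and that of 1436845_at was -0.35 (-1.62 to 0.91).

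Tbx3 codes for a T-box transcription factor that is a target of beta-catenin in liver. Its brightest probe set, 1448029_at, had 79.2, 105 and 63.1 in mTERC- tumours 1, 2 and 3, against 113, 18.6 and 54.2 in mTERC+ tumours 1, 2 and 3, and the groups overlapped. Probe set 1437479_x_at had 4.1, 15.7 and 7.2 in mTERC- tumours, against 33.3, 83.3 and 103 in mTERC+ tumours. This was the 1 member probe set that was lower in mTERC- tumours without overlap, by -1.31 on the log2 scale (SE 0.56), and limma gave an adjusted p of 0.955. Probe sets of the x type can bind related transcripts, and the log2 differences of the other 4 Tbx3 probe sets lay between -0.67 and 0.40.

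Glul had 2 probe sets at or above the median, and neither separated the groups. The signals of 1426235_a_at were 1065, 292 and 1053 in mTERC- tumours 1, 2 and 3, against 963, 864 and 409 in mTERC+ tumours 1, 2 and 3. The groups overlapped, with the lowest value in mTERC- tumour 2 and the next lowest in mTERC+ tumour 3. The log2 difference was -0.0092 (95% interval -0.81 to 0.79), and without mTERC- tumour 2 it was 0.57. Probe set 1426236_a_at had 472, 352 and 612 in mTERC- tumours and 623, 547 and 236 in mTERC+ tumours, with a log2 difference of 0.10 (-0.66 to 0.86).

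Lect2 codes for a secreted hepatocyte protein that is a target of beta-catenin in mouse liver. Its only probe set had 664, 1054 and 178 in mTERC- tumours 1, 2 and 3, against 290.2, 1352 and 207 in mTERC+ tumours 1, 2 and 3. Each group held both high and low tumours, and the log2 difference was 0.19 (95% interval -0.79 to 1.17). The high tumours of Lect2 were mTERC+ tumour 2 and mTERC- tumour 2, of which the last was the lowest for Glul.

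Oat codes for ornithine aminotransferase, a pericentral enzyme of nitrogen metabolism. Its signals were 280.3, 255 and 109.7 in mTERC- tumours 1, 2 and 3, against 110.1, 120.2 and 109.7 in mTERC+ tumours 1, 2 and 3. The mTERC+ tumours lay close together, and mTERC- tumour 3 was level with them. In limma the log2 difference of 0.68 (SE 0.47) had an adjusted p of 0.955.

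Rhbg codes for an ammonium transporter of pericentral hepatocytes. Its signals were 93.1, 269.8 and 133 in mTERC- tumours 1, 2 and 3, against 32.7, 134 and 141 in mTERC+ tumours 1, 2 and 3. The groups overlapped, with the highest value in mTERC- tumour 2. In limma the log2 difference of 0.58 (SE 0.52) had an adjusted p of 0.960. It was 0.22 without mTERC- tumour 2 and 0.12 without mTERC+ tumour 1.

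Slc1a2, a glutamate transporter that marks pericentral hepatocytes in liver, had 5 probe sets, all below the median level. Their signals ran from 3.2 to 140.2 over the 6 tumours, and the groups overlapped for each of them. The log2 differences lay between -0.55 and 0.81, with 4 of the 5 lower in mTERC- tumours, and the smallest adjusted p in limma was 0.955.

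The members did not share 1 order of the tumours. Among the 7 genes with a probe set at or above the median, mTERC- tumour 1 was the highest for Glul, Wnt4 and Oat, mTERC- tumour 2 for Nkd1 and Rhbg, mTERC+ tumour 1 for Tbx3 and mTERC+ tumour 2 for Lect2. Of the 21 pairs of these genes, the closest over the 6 tumours was Wnt4 with Oat, at Pearson r = 0.87 (exact permutation p = 0.0167, adjusted p = 0.350 over the pairs) and Spearman rho = 0.67 (exact permutation p = 0.161). Without the 2 tumours farthest from the median of Wnt4 its r was -0.05, so the relation rests on those tumours. Glul and Lect2 had r = -0.19 (exact permutation p = 0.631) and rho = -0.31 (exact permutation p = 0.564). No pair passed after adjustment.

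The genes whose levels were most like Glul over the 6 tumours were Farsb, Prr16, Ech1, Eif4e, Alg6, Asph, Eif2ak2 and Ogfod1, with Pearson r of 0.97 to 0.99 among 9179 genes compared. Like Glul 1426235_a_at, all 8 were lowest in mTERC- tumour 2, with mTERC+ tumour 3 next. The array of mTERC- tumour 2 is the one with the Gapdh ratio of 13.8, and the part of RNA quality in this likeness was not tested. The other Glul probe set was lowest in mTERC+ tumour 3, at 236, and had 352 in mTERC- tumour 2. The enzyme gene Ech1, for example, had 4923, 1789 and 4654 in mTERC- tumours 1, 2 and 3, against 3740.3, 3611 and 2211 in mTERC+ tumours 1, 2 and 3. Most like Wnt4 were Bex3, Mms22l, Wdr92, Chst15, Phf14, Snhg18, Camp and Gclc, with r of 0.94 to 0.99. All 8 were highest in mTERC- tumour 1. Bex3 had 709, 247 and 159.8 in mTERC- tumours, against 97.6, 113 and 75.6 in mTERC+ tumours, and Camp, an antimicrobial protein gene of neutrophils, had 924, 297 and 50.2 in mTERC- tumours, against 9.0, 79.1 and 23.3 in mTERC+ tumours. Without the 2 tumours farthest from the median, r lay between 0.18 and 0.93 for the genes like Glul and between 0.58 and 0.97 for those like Wnt4. With 6 arrays such values are a description of these tumours.

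Other genes of the pathway were followed in lists, with 1 probe set per gene, the one with the highest mean. No gene of these 6 pathway lists passed in limma. Of 19 further beta-catenin target and feedback genes, 12 had a higher and 7 a lower mean in mTERC- tumours, with a median log2 difference of 0.28 against 0.03 over all genes. For 2 of them the groups did not overlap, both lower in mTERC- tumours, where 4.49% of all genes were. Lef1, a partner of beta-catenin on DNA, had 11.9, 16.9 and 56.2 in mTERC- tumours, against 60.4, 164 and 85.7 in mTERC+ tumours (log2 difference -1.16). Ccnd1, the cyclin D1 gene, had 1297, 799.7 and 1056 in mTERC- tumours, against 1449.5, 1379 and 1399 in mTERC+ tumours (log2 difference -0.44).

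Of 22 Wnt ligands and R-spondins besides Wnt4, 16 had a higher and 6 a lower mean in mTERC- tumours, with a median of 0.13. Wnt3, a canonical Wnt ligand, was the 1 gene without overlap, where 5.87% of all genes were higher in that way. It had 53.5, 104 and 80.7 in mTERC- tumours, against 7.0, 5.5 and 4.1 in mTERC+ tumours (log2 difference 1.54, limma's adjusted p = 0.955), through a probe set of the x type below the median level. Among 24 receptors and secreted inhibitors, the mean was higher for 14 and lower for 10, and the median log2 difference was 0.14. The Frizzled receptor gene Fzd6 had 173, 242 and 163 in mTERC- tumours, against 62.5, 79.1 and 135 in mTERC+ tumours (log2 difference 0.88). Fzd10 and the secreted inhibitor gene Sfrp1 were also higher without overlap, at 0.95 and 0.63. Among 23 transducers the mean was higher for 11 and lower for 12, and the median was -0.07. Ctnnbip1, an inhibitor that binds beta-catenin, had 329, 345 and 349.5 in mTERC- tumours, against 248, 164 and 109 in mTERC+ tumours (log2 difference 0.92), and Pygo2, a nuclear cofactor, had a log2 difference of 0.50. Both were without overlap.

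The other genes of the lobule's zones were counted in the same way. Of 17 other pericentral genes, 9 had a higher and 8 a lower mean in mTERC- tumours, with a median log2 difference of 0.02. Among 19 periportal genes the mean was higher for 9 and lower for 10, and the median was -0.04. Cdh1, the E-cadherin gene, was the 1 gene of both lists without overlap, and it was lower in mTERC- tumours. Of all genes 4.49% were lower and 5.87% higher without overlap. Cdh1 had 173, 40.1 and 198 in mTERC- tumours, against 236, 289 and 200.3 in mTERC+ tumours (log2 difference -0.85, adjusted p = 0.955 in limma). A pair of genes was picked after the values were seen. The pericentral cytochrome gene Cyp2e1 had 1714, 1867 and 487 in mTERC- tumours, against 88.7, 514 and 342.5 in mTERC+ tumours, 2.04 apart on the log2 scale (SE 0.44), with an adjusted p of 0.149 in limma. The periportal cytochrome gene Cyp2f2 had 1916, 2742 and 6687 in mTERC- tumours, against 12838, 6096 and 7165 in mTERC+ tumours, -1.32 apart on the log2 scale (SE 0.40), with an adjusted p of 0.916 in limma. In both genes the overlap was between mTERC- tumour 3 and mTERC+ tumour 2. The pair does not stand for its lists, whose medians were near 0. The pericentral gene Gulo had a log2 difference of -0.76 and the periportal gene Gldc of 0.71. The periportal gene Pigr, at -1.91 (adjusted p = 0.577 in limma), differed more than Cyp2f2.

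In the adenovirus data the question was what TRF2DBDM changed in p53-null liver against GFP. With 1 pool per group there was no test and no error, and the values describe these pools. Of the 13 member probe sets on this array, 9 reached the median of the array in at least 1 pool and were compared. Log2 ratios between the pools are on the scale of log2(signal + 32) unless given as plain signals, and this scale shrinks the ratios of dim probe sets. On it none of the 9 was 2-fold apart, where 7.44% of all 12402 compared probe sets were. As plain signals 1 of the 9 was, that of Slc1a2, where 15.0% of all compared probe sets were. Of the 9, 5 were higher and 4 lower in the TRF2DBDM pool. Their median log2 ratio was 0.03, where that of all compared probe sets was 0.01.

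Glul was level between the pools, at 1128 in the TRF2DBDM pool and 1135 in the GFP pool for 1426235_a_at, and at 476 in the TRF2DBDM pool and 541 in the GFP pool for 1426236_a_at. Lect2 had 1226 in the TRF2DBDM pool and 1393 in the GFP pool. Oat was the bright member that differed most, at 815 in the TRF2DBDM pool against 477 in the GFP pool, a log2 ratio of 0.74. Slc1a2 had 105.5 in the TRF2DBDM pool and 42.2 in the GFP pool through 1451627_a_at, a log2 ratio of 0.89, or 2.5-fold as plain signals, and it was compared only because the TRF2DBDM pool reached its array median. Rhbg had 107 in the TRF2DBDM pool and 86.7 in the GFP pool, and Lgr5 had 93.1 in the TRF2DBDM pool against 139.5 in the GFP pool, a log2 ratio of -0.46. In the TRF2DBDM pool against the GFP pool, Axin2 had 81.1 against 63.9 through 1436845_at, and Tbx3 had 56.3 against 54.2 through 1448029_at. The probe sets of Wnt4, at 43.8 in the TRF2DBDM pool and 25.6 in the GFP pool, and Nkd1, at 36.5 and 27.5, were below both array medians, as were Axin2 1421341_at and Tbx3 1439567_at.

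**Figure D3:**
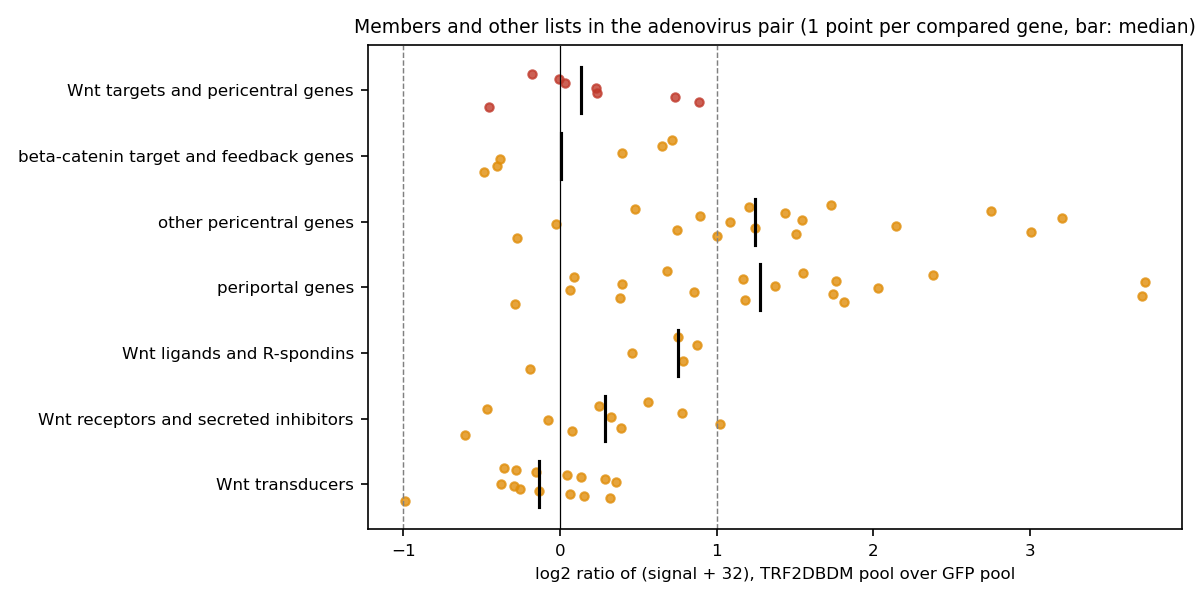
Log2 ratio of (signal + 32), TRF2DBDM pool over GFP pool, for the compared genes of each list, with 1 point per gene (its probe set with the highest mean), a bar at the median and dashed lines at 2-fold. The 8 compared members lie between -0.46 and 0.89, while 12 of 17 other pericentral and 11 of 18 periportal genes are at least 2-fold higher in the TRF2DBDM pool on this scale. In each of these 2 lists, 2 genes were compared through the TRF2DBDM pool alone, so their direction was set by that choice. Of these, Cyp7a1, Sult5a1 and Hsd17b6 are in the counts.

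Most of the compared genes of both lobule zones outside the members were higher in the TRF2DBDM pool. Of 17 other pericentral genes compared, 12 were at least 2-fold higher, with a median log2 ratio of 1.24, where 4.62% of all compared genes were at least 2-fold higher. Cyp1a2, Cyp2c29, Rgn and Pon1 had the largest ratios of that list, at log2 ratios of 3.21, 3.01, 2.75 and 2.15. Of 18 periportal genes 11 were at least 2-fold higher, with a median of 1.28, among them Cyp2f2 at 3.72, Hal at 2.38 and G6pc at 2.03. Of the 17 pericentral genes 2, Cyp7a1 and Sult5a1, were compared only because the TRF2DBDM pool reached its array median. Of the 18 periportal genes 2, Hsd17b6 and Hsd17b13, were compared for the same reason. The higher value of these genes in the TRF2DBDM pool was set by that choice, and nothing is read from it. Cyp7a1 and Sult5a1 are among the 12, and Hsd17b6, at a log2 ratio of 3.74, is among the 11. The counts and medians of both lists are thus partly set by the choice of probe sets. The 8 members compared as genes had a median of 0.13.
As plain signals 14.7% of all compared genes were 2-fold apart in either direction. Of 6 compared beta-catenin target and feedback genes, none was 2-fold apart on the log2(signal + 32) scale, and 1 was as plain signals. It was Rnf43, which codes for an inhibitor of Wnt receptors, at 74.1 in the TRF2DBDM pool and 32.6 in the GFP pool. Rnf43 was compared only because the TRF2DBDM pool reached its array median, so nothing is read from its direction. Notum had a log2 ratio of 0.65, Tcf7l1 of -0.49 and Cd44 of -0.40. Tcf7l1 was compared only because the GFP pool reached its array median, so its lower value in the TRF2DBDM pool was set by that choice.
Of 5 compared ligands, 4 were compared only because the TRF2DBDM pool reached its array median, so their higher value there was set by the choice of probe sets. They were Wnt6 at 65.4 in the TRF2DBDM pool and 21.2 in the GFP pool, Wnt7b at 59.1 and 20.8, Wnt3a at 57.9 and 21.4, and Wnt11 at 54.2 and 30.7, and nothing is read from their direction. Of 10 compared receptors and inhibitors, Fzd9 and Fzd1 were over 2-fold apart as plain signals, at 59.3 in the TRF2DBDM pool against 12.9 in the GFP pool and at 60.4 against 21.8. Both likewise reached the median in the TRF2DBDM pool alone. Sfrp4 and Fzd2 had log2 ratios of -0.61 and 0.56. Of 15 compared transducers, all above the median in both pools, Dvl1, a Dishevelled gene, had 226.5 in the TRF2DBDM pool and 480.6 in the GFP pool. This was 2.12-fold lower as plain signals and -0.99 on the log2(signal + 32) scale. Bcl9l, Ctnnbip1 and Btrc had log2 ratios of -0.38, 0.36 and -0.36.
Hepatocyte markers summed to 64444 in the TRF2DBDM pool and 45693 in the GFP pool, with 6 of 6 higher in the TRF2DBDM pool. Macrophage markers summed to 2226 in the TRF2DBDM pool and 1657 in the GFP pool, with 6 of 8 compared higher. Among the 6, Cd5l was compared only because the TRF2DBDM pool reached its array median. Cd68 was lower, at 319.6 in the TRF2DBDM pool and 798.9 in the GFP pool, as was Mpeg1, at 164.9 and 271.7. Neutrophil markers summed to 1927 in the TRF2DBDM pool and 2832 in the GFP pool, with 5 of 7 compared lower, 1 of them compared through the GFP pool alone. The part of cell content in these ratios was not tested.

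The tumour and adenovirus arrays were of different types, scaled separately by the authors, so the tissues were set side by side without a test. The pools also differed from the tumours in virus infection and in pooling of mice. The HBs transgene and the age are given for the tumour mice only. Array type, tissue and these other differences cannot be told apart. Over the 22626 shared probe sets the mean without the lowest and highest 2% was 269 to 302 on tumour arrays and 147 on both adenovirus arrays, and each array was therefore rescaled to 150 over these probe sets. Of the 13 shared member probe sets, 6 were lower in all 6 tumours than in both pools and at least 2-fold apart in the mean of log2(signal + 32), where 6.53% of the shared probe sets were. None was higher in that way, where 4.61% were.

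**Figure D4:**
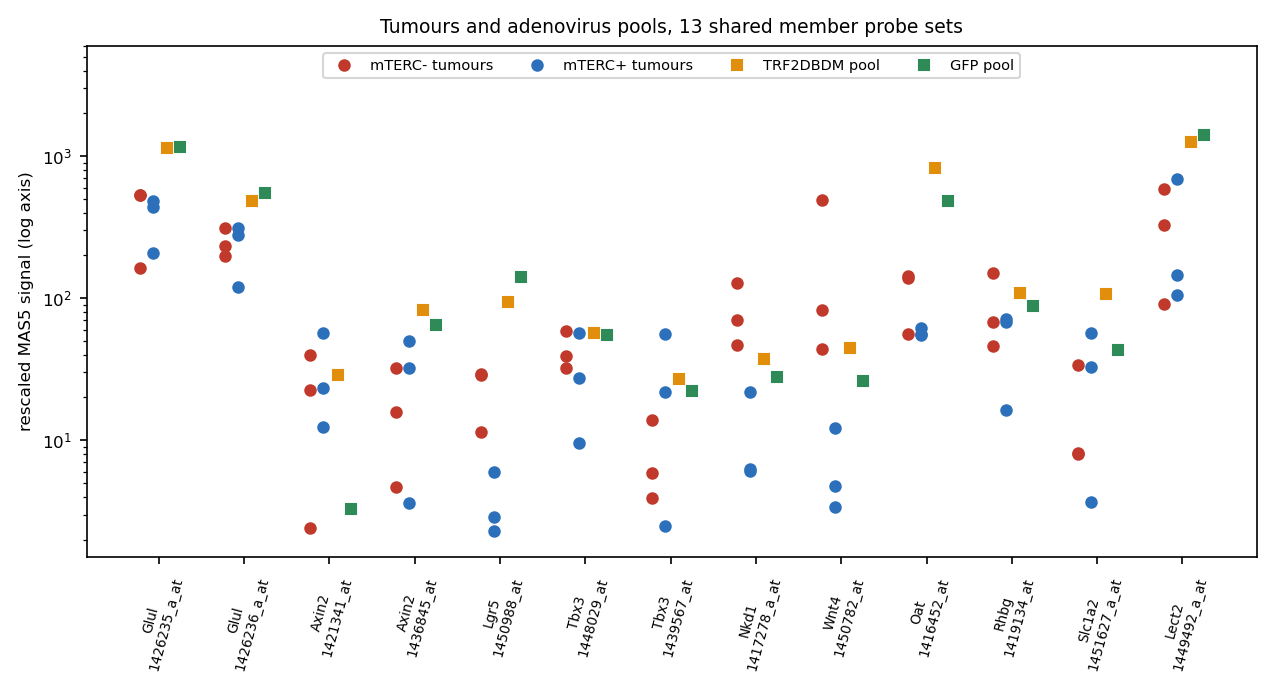
Rescaled MAS5 signal (log axis) of the 13 member probe sets on both array types, with circles for the mTERC- and mTERC+ tumours and squares for the TRF2DBDM and GFP pools. All tumours lie below both pools for Glul, Lect2, Oat and Lgr5 and for Axin2 1436845_at.

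The rescaled signal of Glul 1426235_a_at was 163 to 536 in the tumours, with a median of 461, against 1148 in the TRF2DBDM pool and 1156 in the GFP pool. For 1426236_a_at it was 119 to 312 in the tumours, against 484 and 551 in the TRF2DBDM and GFP pools. The log2 difference of this probe set was -1.05 on the scale of log2(signal + 32). Lect2 had 90.8 to 688 in the tumours, with a median of 237.5, against 1247 in the TRF2DBDM pool and 1417 in the GFP pool. Oat had 55.1 to 142 in the tumours, against 829 in the TRF2DBDM pool and 485 in the GFP pool, a log2 difference of -2.59 on the scale of log2(signal + 32).
Lgr5 had 2.29 to 29.2 in the tumours, against 94.7 and 142 in the TRF2DBDM and GFP pools. Wnt4, Nkd1, Rhbg, Slc1a2, both Tbx3 probe sets and Axin2 1421341_at overlapped between tumours and pools, Wnt4 with mTERC- tumours 1 and 2 above both pools and the mTERC+ tumours below both.
With the signals as deposited, where the median log2 difference of all shared probe sets was 0.56, 2 member probe sets were at least 2-fold lower in all tumours, those of Oat and Lgr5, where 1.06% of shared probe sets were. On that scale Glul 1426235_a_at had a log2 difference of -0.67 and Lect2 of -1.40, with Lect2 overlapping. Glul 1426236_a_at, at -0.16, and Axin2 1436845_at, at -0.58, overlapped too.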

How the data were processed

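Biotin-labelled cRNA from 6 microg of total RNA per array was hybridised to 2 types of Affymetrix array, per the labels' protocols. The authors deposited linear signal intensities made with MAS5, as the submitters' processing notes name it; its version is not given in the sources used here. After 2% was trimmed from each end, every array had a mean of 150, and the authors' scaling was kept.

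Probe sets were named through the platform annotation, where 34958 of 45101 tumour probe sets had 1 symbol, 932 several and 9211 none, and 20393, 691 and 1606 of 22690 on the adenovirus array. The 64 control probe sets were left out. Tumour groups were compared on log2(signal + 32) with limma (version 3.58.1, under R 4.3.3). The tests were two-sided and moderated with a trend of variance on level, with Benjamini-Hochberg adjustment over all 45037 probe sets at 0.05. No level filter was applied, so that every member was tested. Intervals are at 95% for each probe set alone, without adjustment for the number tested. Labels named no batch, and replicate numbers pair no samples. The number of arrays limits the precision, since an array has no count of molecules.

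For the adenovirus pair, a ratio of 2 on the scale of log2(signal + 32), and of plain signals, was counted among probe sets at or above the array median in at least 1 pool. Likeness used genes at or above the median level with a range of at least 1 on the log2 scale. Exact permutation tests for correlations were two-sided, over the 6 tumours.

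The members and lists were chosen with earlier results of these data known. Named were all members; from each list, genes that passed and then up to 4 without overlap between the tumour groups, or up to 4 with the largest adenovirus ratio; and the 8 genes most like Glul and Wnt4, without predicted genes and clones. Cyp2e1, Cyp2f2 and the zonation genes set beside them in the tumours were named outside this rule, after the values were seen. Some list genes had no probe set with a single symbol and were not analysed here: 1 beta-catenin target, 4 pericentral, 3 periportal, 2 hepatocyte and 3 cholangiocyte genes. Alternatives were quantile normalization, median centring, pseudocounts of 1 and 64, a level filter, no variance trend, array weights, an 18S block, 1 probe set per gene and each tumour left out. The code was tested on simulated data. The comparison of tumours with pools and its scalings, and the plain ratios of the adenovirus pair, were added after the data were seen.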

Additional observations from a re-analysis of the deposited data

How the results depend on the processing

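No member probe set passed in limma under any of the alternatives. The brightest probe sets of Wnt4, Nkd1, Lgr5, Tbx3, Oat and Rhbg kept their direction in those that gave a value, which for Lgr5 leaves out the level filter. Some came close to 0: Tbx3, 0.40 as reported, was 0.017 without mTERC+ tumour 2, and Rhbg, 0.58 as reported, was 0.025 with the 18S block. The log2 difference of Wnt4 lay between 2.06 and 4.50 over the processing alternatives and between 1.71 and 3.26 with 1 tumour left out, with adjusted p values of 0.0816 to 0.958. Differences near 0 changed sign. Glul was 0.18 with array weights, 0.58 with the 18S block and 0.10 through its other probe set, and -0.38 to 0.57 with 1 tumour left out. Axin2 was 0.39 with the 18S block and -0.74 to 0.073 with 1 tumour left out. Slc1a2 was 0.15 with a pseudocount of 1, 0.81 through 1438194_at and -0.58 to 0.33 with 1 tumour left out. Lect2 was -0.090 with array weights and -0.31 to 0.96 with 1 tumour left out. Other probe sets gave the opposite sign for Tbx3, at -1.31, -0.67 and -0.11, and for Nkd1, at -0.040, -0.63 and -0.34. The cause was not tested.

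The count of probe sets called over the whole array was 9. It was 5 with median centring, 1 with the level filter, 1 with 1 probe set per gene, 2 with the 18S block and 0 without the variance trend in limma (2285 at an unadjusted p below 0.05). With 1 tumour left out it lay between 5 and 30, reaching 30 when mTERC- tumour 1 was dropped and 18 when mTERC- tumour 3 was. Dropping mTERC- tumour 2 or mTERC+ tumour 3 gave 5. In the adenovirus pair 1 member probe set was 2-fold apart with a pseudocount of 1 and 1 as plain signals, a setting added after the data were seen. It was that of Slc1a2, at 1.30 and 1.32, and 0 were apart under the other settings. There the ratio of Glul, -0.01 as reported, was 0.02 with quantile normalization, and that of Tbx3, 0.03 as reported, was -0.07 with it and -0.08 with median centring. Of the member probe sets at least 2-fold lower in all tumours than in both pools, 2 of the 6 remained with the signals as deposited, and the count was 6 with quantile normalization. No paired analysis was possible because the labels give no replicate numbers that tumours share.

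Members with dim probe sets limit what can be read: on the tumour array Axin2, Lgr5 and Slc1a2 had no probe set at or above the median level. Groups of 3 were too small to be searched for single outlying tumours.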
